A study of Mus musculus with 84 samples.

Results

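The genes described here are the mouse Hox cluster genes, the rows of the deposited expression tables named Hoxa, Hoxb, Hoxc or Hoxd with a number. There were 39 of them among 50692 genes, 11 in cluster A, 10 in cluster B, 9 in cluster C and 9 in cluster D. The series follows mouse embryonic fibroblasts (MEFs) as they are reprogrammed to induced pluripotent stem (iPS) cells while YTHDF2 or YTHDF3, readers of N6-methyladenosine in RNA, is knocked down. Polyadenylated RNA was sequenced in 70 libraries, 2 in every group, and the authors deposited TPM, a share of all transcripts that allows for transcript length. The labels do not say whether the 2 libraries of a group came from separate cultures, so p-values measure the spread between these libraries only.

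In the reprogramming time course, MEFs received retroviral Oct4, Sox2 and Klf4 (pMXs vectors) together with a pSuper-puro hairpin against luciferase (shLuc, the control), Ythdf2 or Ythdf3. They were selected with puromycin from the day before the viral supernatant was removed (day 0) to day 1, kept in iCD1 medium, and sampled at days 1, 3, 5 and 7, which gave 24 libraries. The cell line libraries (18) held MEFs at passage 2 in 10% FBS medium, embryonic stem (ES) cells at passages 20 to 25 and iPS cells at passages 5 to 8, each with the same 3 hairpins, and the ES and iPS cells were kept in N2B27 with 2i and LIF. The strain given is CBA/CaJ X C57BL/6J. A further 4 libraries compared a Tead2 hairpin with its own shLuc control at day 1 of reprogramming. In the lifetime experiment (24 libraries), day 1 reprogramming cells of the 3 arms received 10 μg/ml actinomycin D or its solvent DMSO for 4 or 8 h. The labels do not say whether the sequenced MEFs and those that were reprogrammed came from the same embryos.

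Hox genes encode homeodomain transcription factors that give cells along the head-to-tail axis, and along the limb, their positional identity. Within a cluster the genes lie in the order of the body regions in which they act, so that members with low numbers pattern anterior structures and those with high numbers the lumbar, sacral, caudal and distal limb regions. Adult and embryonic fibroblasts keep the Hox code of the place they come from, whereas pluripotent cells hold the clusters under Polycomb repression. The members are grouped below by paralog number as anterior (groups 1 to 3, 8 genes), central (groups 4 to 8, 15 genes) and posterior (groups 9 to 13, 16 genes). Cluster A lies on chromosome 6. On build GRCm38.p6 cluster B spans chr11:96194316-96368254, cluster C chr15:102921131-103036856 and cluster D chr2:74668225-74765142. Hox transcripts overlap each other and antisense genes, and the strand of the counting is not given in the sources used here, so the split of reads between overlapping genes is uncertain.

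Start-site sequences (250 bases before to 50 after the start, from RefSeq on GRCm38.p6) were given for 22 of the 39 members. Those of 5 members are shown because the accessibility and TEAD2 binding described further on fall on them differently. Capitals mark the bases inside an ATAC-seq peak of the shLuc cells at day 1, and lower case the bases outside.
Hoxd13, chr2:74667975-74668274, plus strand: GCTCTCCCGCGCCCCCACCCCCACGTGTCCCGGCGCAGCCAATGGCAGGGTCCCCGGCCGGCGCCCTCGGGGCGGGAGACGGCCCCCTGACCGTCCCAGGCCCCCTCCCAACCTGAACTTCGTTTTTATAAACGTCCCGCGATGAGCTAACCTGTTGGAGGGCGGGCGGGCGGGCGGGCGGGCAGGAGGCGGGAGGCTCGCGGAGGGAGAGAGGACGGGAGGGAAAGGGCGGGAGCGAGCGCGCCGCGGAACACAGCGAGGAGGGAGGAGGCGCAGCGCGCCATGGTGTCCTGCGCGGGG
Hoxd1, chr2:74762730-74763029, plus strand: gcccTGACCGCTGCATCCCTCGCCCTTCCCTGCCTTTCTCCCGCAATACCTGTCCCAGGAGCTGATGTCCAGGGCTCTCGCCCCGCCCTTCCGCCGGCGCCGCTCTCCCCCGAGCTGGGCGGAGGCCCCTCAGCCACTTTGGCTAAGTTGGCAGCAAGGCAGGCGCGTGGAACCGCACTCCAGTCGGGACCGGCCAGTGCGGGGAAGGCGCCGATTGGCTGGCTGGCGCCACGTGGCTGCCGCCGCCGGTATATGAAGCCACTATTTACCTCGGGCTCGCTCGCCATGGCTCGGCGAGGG
Hoxd10, chr2:74691641-74691940, plus strand: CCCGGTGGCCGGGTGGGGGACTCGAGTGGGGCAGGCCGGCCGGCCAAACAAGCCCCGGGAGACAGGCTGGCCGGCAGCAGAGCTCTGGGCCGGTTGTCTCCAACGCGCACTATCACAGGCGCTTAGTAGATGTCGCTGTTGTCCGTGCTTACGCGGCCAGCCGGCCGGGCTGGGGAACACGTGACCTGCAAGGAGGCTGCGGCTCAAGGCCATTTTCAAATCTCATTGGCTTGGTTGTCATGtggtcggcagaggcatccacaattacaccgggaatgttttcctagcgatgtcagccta
Hoxa10, chr6:52234890-52235189, minus strand: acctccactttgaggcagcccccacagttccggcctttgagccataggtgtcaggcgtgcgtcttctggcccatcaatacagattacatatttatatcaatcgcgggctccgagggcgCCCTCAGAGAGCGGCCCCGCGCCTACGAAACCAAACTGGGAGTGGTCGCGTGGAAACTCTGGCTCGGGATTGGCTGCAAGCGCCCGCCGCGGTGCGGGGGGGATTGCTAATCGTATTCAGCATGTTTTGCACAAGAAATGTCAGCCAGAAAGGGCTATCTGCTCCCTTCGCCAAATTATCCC
Hoxa9, chr6:52227321-52227620, minus strand: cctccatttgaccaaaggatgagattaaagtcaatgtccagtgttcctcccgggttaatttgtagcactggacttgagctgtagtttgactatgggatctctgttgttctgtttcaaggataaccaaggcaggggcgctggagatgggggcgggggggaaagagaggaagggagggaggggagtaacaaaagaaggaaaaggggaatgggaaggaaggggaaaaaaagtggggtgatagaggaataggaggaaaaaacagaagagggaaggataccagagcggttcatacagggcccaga
The Hoxd13 window lay wholly inside a peak, and the Hoxd1 window had 296 of its 300 bases inside one. The Hoxd10 and Hoxa10 windows had 242 and 182 bases inside a peak, and the Hoxa9 window had 0. Hoxa10 has a further annotated start, chr6:52240805-52241104 as a window, that no peak of this list touched. The Hoxd13 and Hoxd1 windows held 37 and 29 CpG dinucleotides and the Hoxa9 window 4. Over the 24 Hox windows the median was 14.5, against 7 over 32851 start-site windows of all genes.

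MEFs carried a Hox code of mostly anterior and central genes. Among the posterior genes, Hoxd9 was at a mean of 26.7 TPM and Hoxb9 at 6.01 TPM in MEF shLuc. Summed over the 39 members, MEF libraries held 255 to 344 TPM (median 310, 6 libraries), ES libraries 34.9 to 58.0 and iPS libraries 18.7 to 47.4. The posterior genes made up 11.6 to 16.1% of the MEF sum, 56.5 to 66.8% of the ES sum and 62.3 to 69.2% of the iPS sum. Of the 39 members, 20 were at 1 TPM or more in all 6 MEF libraries, 9 in all 6 ES libraries and 4 in all 6 iPS libraries. In MEFs 11 members were listed at 0 in all 6 libraries: Hoxb1 and Hoxd1, and 9 of the 16 posterior genes (Hoxa11, Hoxa13, Hoxb13, Hoxc10, Hoxc12, Hoxc13, Hoxd11, Hoxd12 and Hoxd13). No housekeeping gene of the list used as a check was at 0 in any library.

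**Figure D1:**
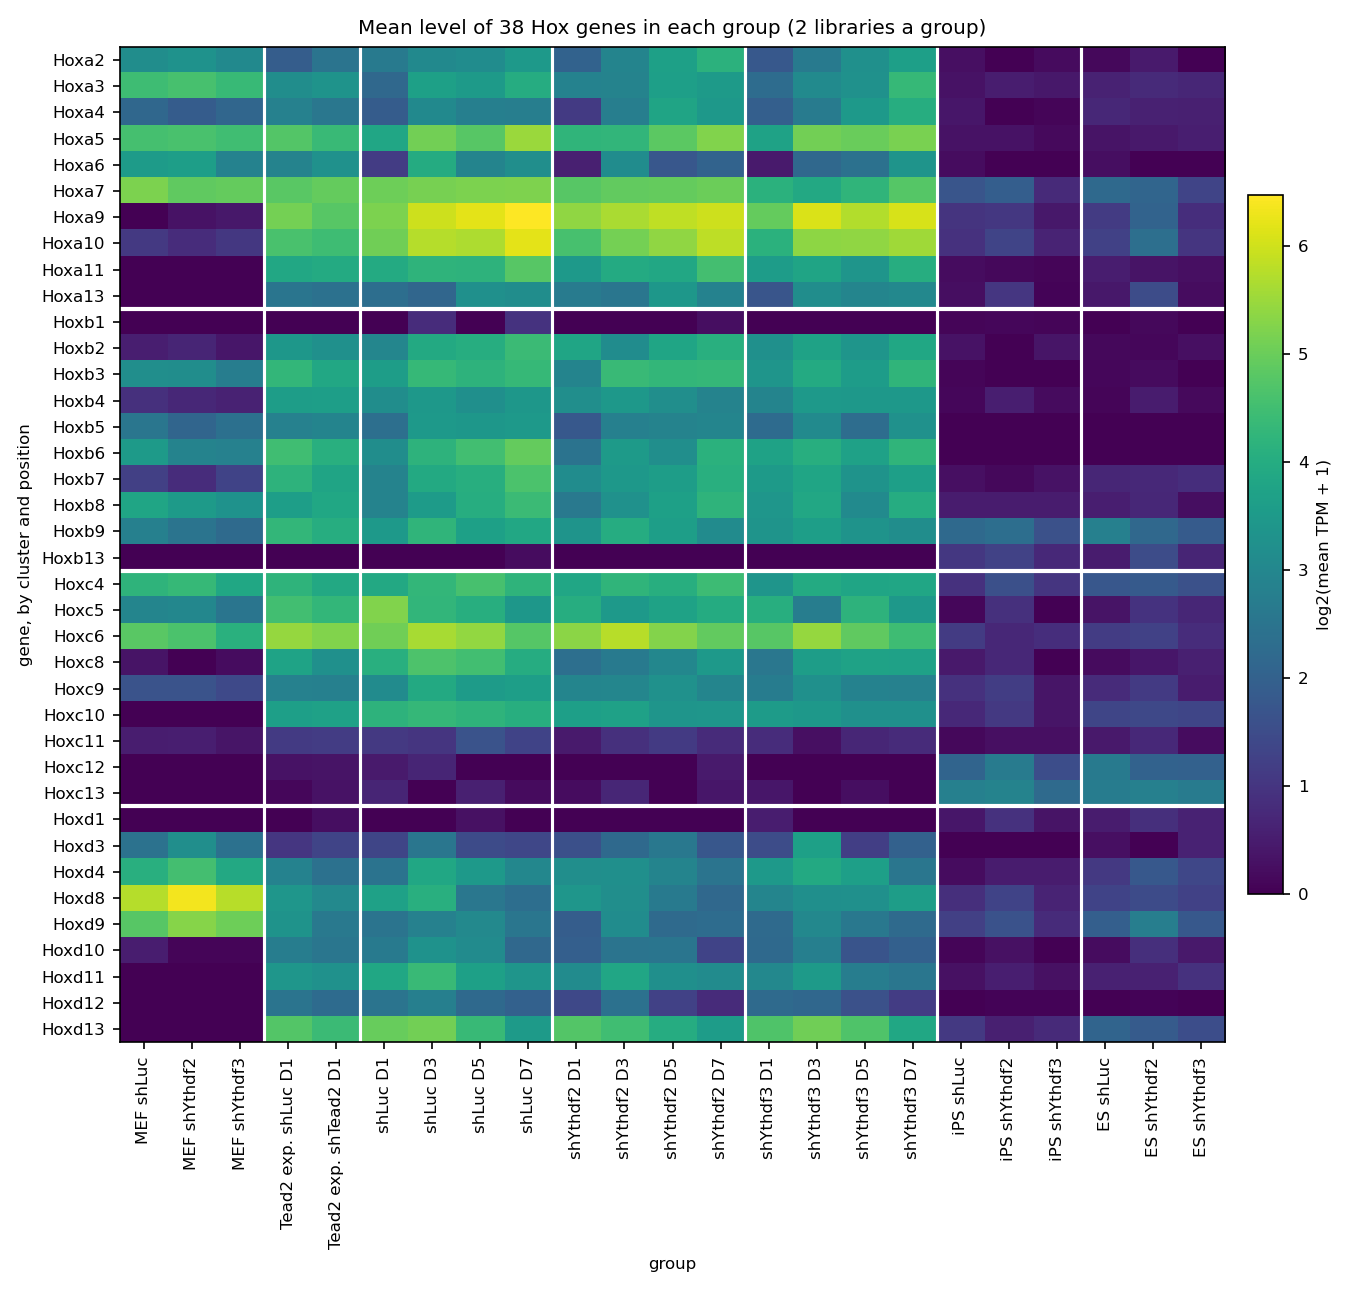
Mean level of 38 of the 39 Hox genes (rows, by cluster and position) in each group of 2 libraries (columns), as log2(mean TPM + 1) in colour. Hoxa9, Hoxa11, Hoxc10, Hoxd11 and Hoxd13 are at 0 in the MEF control and above 0 in every time course group, Hoxd9 is highest in MEFs, and nearly all rows are low in ES and iPS libraries.

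The most abundant Hox transcript of MEFs was Hoxd8, a central gene of cluster D, at 52.7 and 53.3 TPM in the shLuc libraries, 79.3 and 83.6 in shYthdf2 and 53.9 and 53.8 in shYthdf3. It was at 2.4 and 0.56 TPM in ES shLuc and at 0.51 and 1.16 in iPS shLuc. All MEF libraries were above all ES and iPS libraries. With limma on log2(TPM + 1), the scale of every log2 change given here, Hoxd8 was lower in ES cells than in MEFs by a log2 change of -4.55 (SE 0.318, adjusted p = 8.2312e-08). Hoxa7, which patterns the thoracic region, was at 32.2 and 38.6 TPM in MEF shLuc and 3.04 and 4.3 in ES shLuc (log2 change -2.97). Hoxa5, needed for lung and cervical patterning, was at 22.4 and 22.8 TPM in MEF shLuc and at 0 and 0.52 in ES shLuc (log2 change -4.26, SE 0.244). Hoxb6 was at 10.97 and 10.2 TPM in MEF shLuc and was listed at 0 in all 12 ES and iPS libraries. These 4 genes are central members of 3 clusters, and none of their ES and MEF libraries overlapped.

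Of the 39 members 30 had 1 TPM or more in at least 2 cell line libraries and were tested; the other 9 did not pass this filter. Between ES cells and MEFs 24 of the 30 changed, 19 lower and 5 higher in ES cells, where 62.9% of the 17985 genes tested were called (32.9% lower and 30% higher). The share of members called lower was therefore above that of all genes, and the share called higher below it. By region the lower calls were 5 of 6 anterior, 12 of 13 central and 2 of 11 posterior genes tested, and all 5 higher calls were posterior. This split was partly fixed in advance. Hoxa13, Hoxb13, Hoxc10, Hoxc12, Hoxc13 and Hoxd13, at 0 in all MEF libraries, passed the filter only through ES and iPS libraries. Neither they nor Hoxa9, at 0 in MEF shLuc, could be called lower. In iPS cells against the same MEF libraries 26 of the 30 were called, 21 lower and 5 higher (62.4% of all genes, 29.4% lower and 33% higher). Beyond those named above, Hoxa3 (pharyngeal arches), Hoxc6, Hoxa6 and Hoxb8 (thoracic region) and Hoxb3 were among the lower calls, with log2 changes between ES cells and MEFs of -3.87, -3.70, -3.32, -3.27 and -3.10.

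Some posterior genes were present in pluripotent cells and not in MEFs. Hoxc13, known for its role in hair and nail, was at 4.48 and 6.74 TPM in ES shLuc, 7.37 and 4.74 in ES shYthdf2 and 5.89 and 5.07 in ES shYthdf3. It was at 5.51 and 6.47, 6.1 and 6.67, and 3.9 and 3.48 TPM in iPS cells of the same arms, and at 0 in all 6 MEF libraries. Its log2 change between ES cells and MEFs was 2.70 (SE 0.211, adjusted p = 2.28991e-07, limma). Its neighbour Hoxc12 was at 2.7 and 7.71 TPM in ES shLuc and 2.89 and 3.56 in iPS shLuc (log2 change between ES cells and MEFs 2.51, SE 0.317). Hoxd13, which patterns digits and the genital tubercle, was at 3.33 and 3.08 TPM in ES shLuc and 1.23 and 1 in iPS shLuc, also listed at 0 in MEFs. Hoxc10 and Hoxa9 were the other calls higher in ES cells, with mean levels of 1.57 and 1.19 TPM. Hoxb9 was not called between ES cells and MEFs (mean 6.11 and 6.01 TPM, log2 change 0.01, SE 0.197).

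Between iPS and ES cells 4 of 30 members were called, all lower in iPS cells (20.3% of all genes, 5.62% lower). With limma they were Hoxd13 (log2 change -0.99, adjusted p = 0.00426), Hoxd4 (-0.88, adjusted p = 0.0113), Hoxc4 (-0.83, adjusted p = 0.0173) and Hoxb9 (-0.63, adjusted p = 0.0429). Mean levels in iPS and ES shLuc were 0.155 and 1.11 TPM for Hoxd4 and 0.89 and 2.4 TPM for Hoxc4. These lie near the pseudocount of 1 TPM, so their log2 changes are not fold changes. Without iPS shLuc replicate 1 there were 2 calls and without replicate 2 only 1, and the mean over the 3 hairpins gave 9. For Hoxc13 the difference was 0.10 (SE 0.211), which did not pass.

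The other gene lists are read against all genes, of which 62.9% were called between ES cells and MEFs, 30% higher and 32.9% lower. Of 11 TALE homeodomain genes, which include cofactors that bind DNA together with HOX proteins, 6 were lower and 2 higher in ES cells. Neither of the 2 higher was a Meis, Pbx or Pknox gene. Among the lower, Meis1 was at a mean of 1.15 against 23.6 TPM and Meis3 at 2.04 against 15.7 TPM. Of 26 Polycomb genes 12 were higher and 10 lower, with Cbx7 at 122 against 4.48 TPM and Jarid2 at 66.7 against 8.46 TPM among the higher. Of 11 Trithorax and MLL genes 5 were higher, among them Ash2l at 379 against 55.2 TPM, and 2 lower, among them Kmt2a at 5.68 against 23.5 TPM. Of 9 tested regulators upstream of the clusters 5 were higher and 4 lower, with Cdx1, a direct activator of Hox genes in the embryo, at 23.3 TPM in ES cells and listed at 0 in MEFs. Of 18 tested positional factors outside the clusters 12 were lower and 5 higher, with the limb and mesenchyme factor Prrx1 at 0.53 against 395 TPM. Of 6 tested noncoding transcripts of the clusters 3 were lower and 1 higher, Halr1, a transcript of the cluster A region, at 59.5 TPM in ES cells and 0 in MEFs. Of 13 tested genes flanking the clusters 5 were higher and 4 lower. The shares called of the Trithorax and MLL genes (7 of 11), the noncoding transcripts (4 of 6) and the flanking genes (9 of 13) were near that of all genes.

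Cells at day 1 of reprogramming held a different Hox set from the MEF libraries, with posterior genes high that were absent there. Hoxa9, which acts in the lumbar region and the limb, was at 27.5 and 43.4 TPM in the day 1 shLuc libraries of the time course and at 35.9 and 31.4 in those of the Tead2 experiment, and it was listed at 0 in both MEF shLuc libraries. Hoxd13 was at 22.5 and 38.2 TPM in the time course and 27.8 and 23.7 in the Tead2 experiment, against 0. Hoxc8, a thoracic gene, was at 11.3 and 20.5 TPM and 12.6 and 12.4 TPM in the same libraries, against 0.11 and 0.43 in MEF shLuc. For all 3 genes every day 1 library lay above every MEF library. Hoxa10, known for uterine and lumbar patterning, was at 29.3 and 35.8 TPM in the time course, 23.5 and 23.6 in the Tead2 experiment and a mean of 1.12 in MEF shLuc.

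In 1 limma fit over all 46 libraries of the RNA table, 21 of 39 members were called between day 1 shLuc of the time course and MEF shLuc, 15 higher and 6 lower. Of all 23371 genes tested 21.2% were called, 13% higher and 8.18% lower, so both directions were more frequent among the members than among all genes. The higher calls were 10 of 16 posterior, 4 of 15 central and 1 of 8 anterior genes, and the lower calls 1, 3 and 2. Members at 0 in MEF shLuc, most of them posterior, could not be called lower. The median log2 change was 2.24 over the posterior genes, -0.33 over the central genes and -0.34 over the anterior genes, against 0 over all genes. The largest changes were Hoxa9 at 5.15 (SE 0.502, adjusted p = 6.86765e-09), Hoxd13 at 4.92, Hoxc10 at 4.12, Hoxa10 at 4.02, Hoxa11 at 3.85, Hoxc8 at 3.69 and Hoxd11 at 3.61. Hoxa11 and Hoxd11 pattern the forearm and lower leg, and Hoxc10 the lumbar spinal cord and hindlimb. Among the lower calls, Hoxd8 was at a mean of 12.0 against 53.0 TPM (log2 change -2.07), Hoxd9 at 4.59 against 26.7 TPM (-2.31) and Hoxa3 at 3.58 against 21.1 TPM (-2.35).

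The day 1 control of the Tead2 experiment, compared with the same MEF libraries after the first result was known, gave 23 calls, 17 higher and 6 lower (19.1% of all genes, 14.3% higher and 4.81% lower). Of the 11 members at 0 in all MEF libraries, 4 (Hoxa11, Hoxc10, Hoxd11 and Hoxd13) were at 1 TPM or more in all 24 time course libraries and in all 12 DMSO libraries of the lifetime experiment. In the 4 libraries of the Tead2 experiment the same held for 6, with Hoxa13 and Hoxd12 added. Posterior genes made up 33.5 to 49.8% of summed Hox TPM in the time course, from 35.5 to 38.5% with the Tead2 hairpin or its control, and from 28.5 to 45.2% under DMSO. No library of these 3 experiments overlapped the MEF libraries in this share. The experiment, the medium and the virus differ between these groups, and the source of the MEFs may, so their parts in the result cannot be told apart. In bulk RNA, fewer cells that express a gene and less RNA per cell cannot be told apart either.

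**Figure D2:**
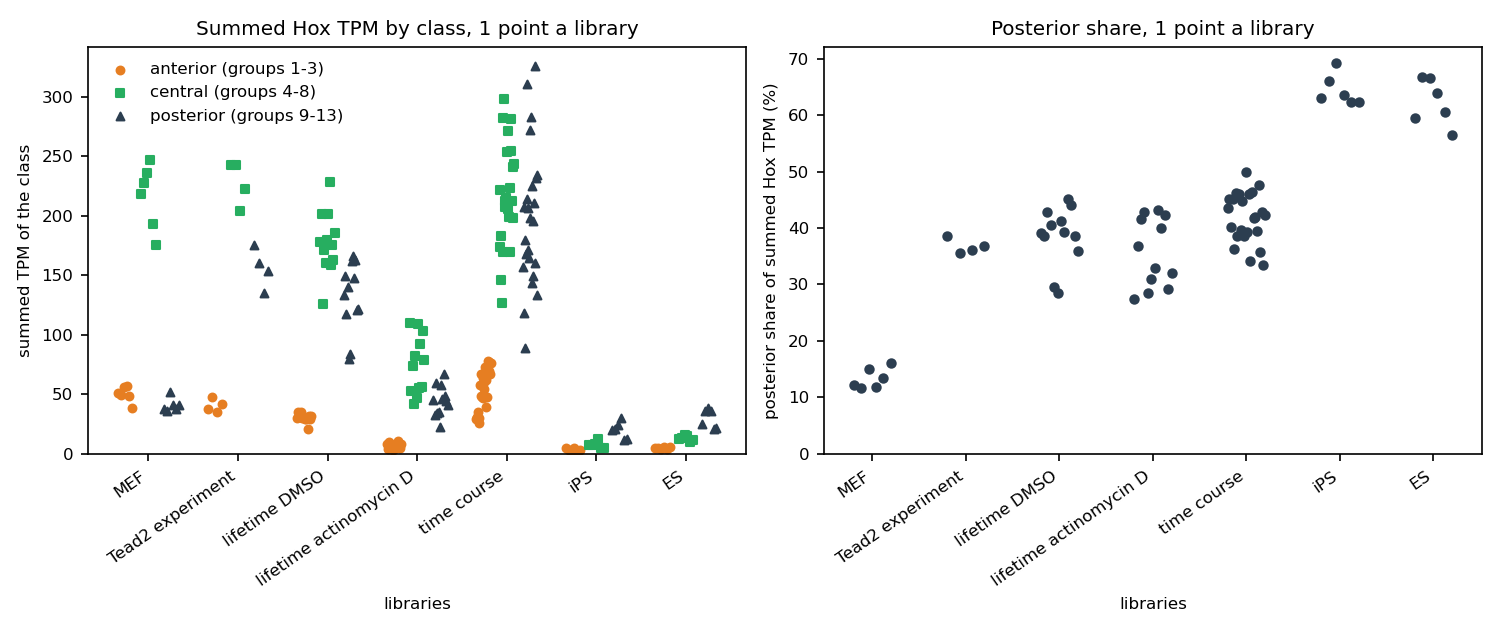
Summed TPM of the anterior, central and posterior Hox genes (left) and the posterior share of the Hox sum in percent (right) in each library, by experiment or cell type (1 point per library). Posterior sums were 36.2 to 51.8 TPM in MEFs and 89.1 to 326 TPM in the time course, while central sums overlapped.

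All 12 fibroblast markers had a median of 1 TPM or more in MEFs, the time course, the Tead2 experiment and the DMSO libraries, and all 12 pluripotent markers in ES and iPS cells. Summed over the 12, fibroblast markers were at 6507 to 8860 TPM in MEFs, 1116 to 4514 in the time course, 229 to 343 in ES and 445 to 635 in iPS cells. The pluripotent markers, which include the transgenes, summed to 18.9 to 36.6 TPM in MEFs and 3281 to 11279 TPM in the time course. Neural markers summed to 3.65 to 7.82 TPM in MEFs and 70.2 to 231 TPM in the time course, and skeletal muscle markers to 1.35 to 350 TPM in the time course (median 5.09). Endothelial markers summed to 0.24 to 3.27 TPM in MEFs, with 0 of 6 at a median of 1 TPM or more and Kdr and Tie1 at 0 in every MEF library. They summed to 2.05 to 11.89 TPM in the time course, with 3 of 6 at that level. Macrophage markers summed to 17.1 to 24.5 TPM in MEFs (3 of 6) and 7.0 to 83.0 in the time course (2 of 6). The part of these in the Hox results was not tested. Ythdf2 was at a mean of 16.5 TPM in the shYthdf2 arm of the time course against 49.7 in shLuc (adjusted p = 0.0034), and Ythdf3 at 14.5 in the shYthdf3 arm against 33.1 (adjusted p = 0.0139, limma). In MEFs the adjusted p was 0.071 for Ythdf2 and 0.0462 for Ythdf3, each in its own arm.

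Other positional genes also separated day 1 cells from the MEF libraries. Of 31 tested positional factors outside the clusters 13 were called higher and 1 lower at day 1 (median log2 change 0.83 against 0 over all genes). Pitx1, which specifies hindlimb, was at a mean of 12.8 TPM at day 1 and listed at 0 in MEF shLuc. Hand2, a factor of the posterior limb bud, was at 10.1 TPM against 0, and Meox2, of limb muscle and somites, at 14.9 against 0.06 TPM. Prrx2, a mesenchymal homeobox gene, was the lower call, at 20.9 against 181 TPM. Of 9 tested noncoding cluster transcripts 2 were called, both higher: Hoxa11os, antisense to Hoxa11, at 22.2 TPM against 0 (adjusted p = 5.01205e-07, limma) and Hoxaas3 at 5.76 against 0.74 TPM. Of 14 tested flanking genes 1 was higher and 3 lower, of 11 TALE genes 1 higher (Pbx3) and 2 lower (Meis1 and Tgif1), and of 11 tested upstream regulators 1 higher (Rarb) and 3 lower (Cyp26b1, Rara and Rarg). Of 26 Polycomb genes 3 were higher, with Phf19 at 14.8 against 0.33 TPM, and 5 lower, with Cbx6 at 28.3 against 111 TPM. Of 11 Trithorax and MLL genes 2 were higher and 1 lower. These counts stand against 4956 called of all 23371 genes tested.

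During days 1 to 7 of reprogramming the Hox genes did not fall as a class. In shLuc cells, Hoxa5 was at 14.4 and 12.0 TPM at day 1, 42.6 and 23.9 at day 3, 33.5 and 19.4 at day 5 and 42.7 and 45.2 at day 7. Hoxb6 was at 8.58 and 7.41, 23.3 and 10.9, 22.2 and 21.2, and 30.1 and 29.6 TPM on the same days. Hoxa3 was at 5.05 and 2.1, 10.6 and 12.8, 10.4 and 10.4, and 15.7 and 14.3 TPM. For these 3 genes both day 7 libraries lay above both day 1 libraries. Hoxa9 was at 27.5 and 43.4 TPM at day 1, 51.1 and 72.2 at day 3, 49.8 and 94.5 at day 5 and 64.4 and 111 at day 7, with replicate 2 above replicate 1 each day. Hoxd13 was at 22.5 and 38.2, 29.3 and 37.3, 15.4 and 23.4, and 11.4 and 9.46 TPM, lowest at day 7. Hoxc5 was at 26.6 and 47.5 TPM at day 1 and 9.75 and 9.66 at day 7.

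Between day 7 and day 1 in shLuc 6 of 35 tested members were called, 5 higher and 1 lower, where 6.83% of 21303 genes were called (3.92% higher and 2.9% lower). The higher calls included Hoxa3 (log2 change 1.88), Hoxb6 (1.78), Hoxb7 (1.73) and Hoxa5 (1.67, SE 0.367, adjusted p = 0.0105), and the lower call was Hoxc5 (-1.77, SE 0.370, adjusted p = 0.00749). Libraries of the same replicate number deviated together here, and with replicate number as a block 10 were called, 8 higher and 2 lower, against 11% of all genes. The block added Hoxa9, Hoxa10 and Hoxb2 as higher and Hoxd13 as lower (log2 change -1.41, adjusted p = 0.00346). All 11 members of cluster A and all 9 tested of cluster B had a positive change, with medians of 1.07 and 1.16, and 2 of 8 tested in cluster D, with a median of -0.44, against 0.01 over all genes. The tested members of cluster C went both ways, from -1.77 (Hoxc5) to 0.51 (Hoxc9). Without day 1 replicate 2 only 1 member was called, without day 7 replicate 1 there were 2 and without day 7 replicate 2 there were 0.

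In the shYthdf2 arm 5 members were called between day 7 and day 1, all higher (5.22% of all genes, 3.31% higher). Among them were Hoxa4, Hoxa2, Hoxb6 and Hoxb3, with log2 changes of 2.35, 2.11, 1.88 and 1.37. With the replicate block 10 were called, 9 higher and 1 lower, against 9.33% of all genes. In the shYthdf3 arm 4 were called, all higher (5.23% of all genes, 4.33% higher). Among them were Hoxa3, Hoxa2 and Hoxa5, with log2 changes of 2.16, 1.87 and 1.43. With the block 6 were called, against 9.28% of all genes. In shYthdf2 there were 2 calls without day 1 replicate 1 or day 7 replicate 2, and 0 without day 1 replicate 2 or day 7 replicate 1. In shYthdf3 there were 2 without day 1 replicate 2, and 0 without day 1 replicate 1 or day 7 replicate 2. All 11 cluster A members had a positive change in each of the 3 arms. Tested as a difference from the change in shLuc, 0 members passed in either knockdown with limma (0.00469% and 0% of all genes). Of 35 members tested, 1 and 3 had an unadjusted p under 0.05, counts that were not set against all genes. Hoxc5 had the lowest p of these in shYthdf2, with a difference of 1.75 (SE 0.523, adjusted p = 1).

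**Figure D3:**
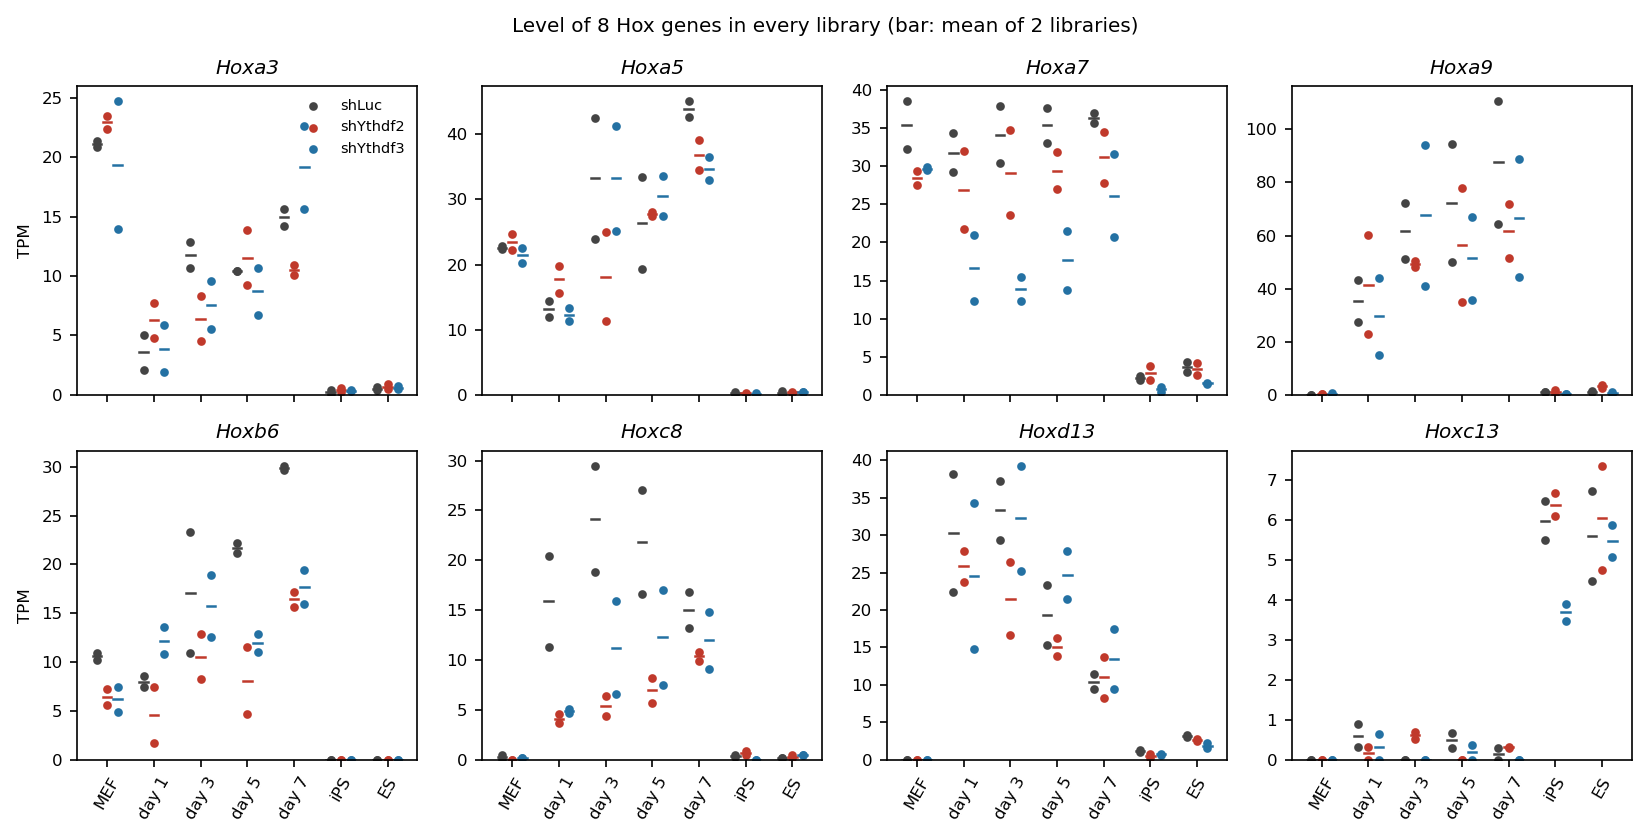
TPM of 8 Hox genes in shLuc, shYthdf2 and shYthdf3 libraries (colours) of MEFs, reprogramming days 1, 3, 5 and 7, iPS and ES cells (points are libraries, short bars the mean of 2). Hoxa9, Hoxc8 and Hoxd13 are at or near 0 TPM in MEFs and high at day 1, Hoxa3 and Hoxa5 are higher at day 7 than at day 1 in shLuc, and Hoxc13 is seen in ES and iPS cells.

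In the iPS cells most of these transcripts were at low levels or at 0. Between iPS shLuc and day 7 shLuc 36 of 39 members were called, 33 lower and 3 higher in iPS cells, against 30.5% of all genes (18.9% lower and 11.6% higher). Hoxa9 was at a mean of 0.95 TPM in iPS cells against 87.6 at day 7 (log2 change -5.45), Hoxa10 at 0.89 against 72.7 (-5.22) and Hoxa5 at 0.24 against 43.9 TPM (-5.21). The higher genes were Hoxc13 (2.62), Hoxc12 (2.07) and Hoxb13 (0.85), all at the posterior end of their clusters. Hoxb13 was near the floor, at a mean of 1.07 TPM in iPS cells against 0.16 at day 7. Hoxb1, Hoxd1 and Hoxd3 were not called. Of 11 TALE genes 7 were lower and 1 higher, of 31 tested positional factors 17 lower and 4 higher, and of 9 tested noncoding transcripts 4 lower and 0 higher. These libraries differ in experiment and medium, which cannot be told apart from the cell type.

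Among the other lists, in shLuc between day 1 and day 7, Halr1 was listed at 0 at day 1 and stood at 37.1 TPM at day 7 (adjusted p = 8.35231e-05), and Hotairm1, a noncoding transcript of cluster A, went from 5.76 to 55.1 TPM (adjusted p = 0.0127, limma). These were the 2 calls among 9 tested noncoding transcripts, both higher. Of 29 tested positional factors 2 were higher and 3 lower, with Prrx1 at 194 TPM at day 1 and 56.0 at day 7. Pbx4 was the 1 call of 11 TALE genes, Jarid2 the 1 of 26 Polycomb genes, and Calcoco2 and Skap2 the 2 of 13 tested flanking genes, all higher. Of all 21303 genes tested 1454 were called, so the single TALE and Polycomb calls were near that share. None of the tested 11 Trithorax genes and 9 upstream regulators was called.

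Knockdown of either reader was accompanied by lower Hoxc8. In shLuc Hoxc8 was at 11.3 and 20.5 TPM at day 1, 18.9 and 29.5 at day 3, 16.6 and 27.1 at day 5 and 16.8 and 13.2 at day 7. In shYthdf2 it was at 3.63 and 4.6, 4.39 and 6.39, 5.71 and 8.18, and 9.94 and 10.8 TPM on these days, with no overlap over the 8 libraries of each arm. In shYthdf3 it was at 4.68 and 5.1, 6.56 and 15.9, 7.53 and 16.99, and 9.11 and 14.8 TPM, which overlaps shLuc. The mean over the 4 days was lower than in shLuc by a log2 change of -1.41 (SE 0.234, adjusted p = 0.00351) in shYthdf2 and -0.94 (SE 0.234, adjusted p = 0.0284) in shYthdf3. The shYthdf2 call held in all alternative settings, and the shYthdf3 call was lost in 9 of 20. Both comparisons use the same shLuc libraries.

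In shYthdf2 the other call among 35 tested members was Hoxb6 (log2 change -0.94, SE 0.247, adjusted p = 0.0471), at a mean of 9.90 against 19.2 TPM, which was lost in 14 of 20 settings, among them the omission of any shLuc library other than day 3 replicate 2, of either shYthdf2 library of day 7, and of replicate 2 of the other shYthdf2 days; 1 call then remained, Hoxc8. The 2 calls stood against 3.54% of all genes called (1.46% lower), and 30 of the 35 changes were negative with a median of -0.30, against -0.02 over all genes. With the replicate block there were 4 calls, all lower, with Hoxa10 (-0.45) and Hoxc10 (-0.69) added, against 7.55% of all genes. In shYthdf3 3 members were called, all lower, against 5.26% of all genes (2.5% lower). Of the 35 changes 28 were negative, with a median of -0.32 against 0.02 over all genes. Hoxa7 was the strongest, at 12.3 and 21.0, 15.5 and 12.3, 13.8 and 21.5, and 20.7 and 31.6 TPM at days 1, 3, 5 and 7 in shYthdf3, against 29.2 and 34.4, 30.4 and 37.9, 33.1 and 37.7, and 35.7 and 37.0 in shLuc. All but 1 of the 8 shYthdf3 libraries lay below all shLuc libraries, and the log2 change was -0.91 (SE 0.160, adjusted p = 0.00327, limma). Hoxc9 was the third (-0.65, adjusted p = 0.0479), and its call was lost in 18 of 20 settings. A single member was called without replicate 1 of any shYthdf3 day, and without shLuc replicate 2 of day 1, 3 or 5 or shLuc replicate 1 of day 7. With the replicate block 9 were called in shYthdf3, all lower, with Hoxa10, Hoxc10, Hoxc5, Hoxa11, Hoxd11 and Hoxc4 added, against 10.5% of all genes.

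The DMSO libraries of the lifetime experiment are a separate set of day 1 cells with the same hairpins, and were compared after the time course values were known. Hoxc8 was at 7.29, 7.9, 8.04 and 12.6 TPM in the 4 shLuc libraries, 2.04, 2.02, 3.46 and 1.86 in shYthdf2 and 3.45, 6.74, 2.65 and 5.28 in shYthdf3. Both knockdown arms lay below all shLuc libraries. The log2 change was -1.57 (SE 0.415, adjusted p = 0.173) in shYthdf2 and -0.88 (adjusted p = 0.507) in shYthdf3, and with the replicate block the adjusted p in shYthdf2 was 0.0176. Hoxa7 was at 21.5 to 26.6 TPM in shLuc and 9.18 to 17.96 in shYthdf2 (log2 change -0.93, adjusted p = 0.133, and 0.0312 with the block), whereas in shYthdf3 the log2 change was -0.06. So the arm with lower Hoxa7 in these libraries was shYthdf2, and in the time course it was shYthdf3; whether the arms differ was not tested. No member was called with limma without the block in either arm (0.342% and 0.7% of all genes). Of 34 members tested, 2 and 3 had an unadjusted p under 0.05, counts that were not set against all genes. With the block 2 members were called in shYthdf2, Hoxc8 and Hoxa7, against 1.71% of all genes, and 1 in shYthdf3, Hoxa10 (log2 change -0.82, adjusted p = 0.00822), against 3.82%.

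In MEFs no tested Hox gene was called in either knockdown with limma (1.46% of all genes in shYthdf2 and 0.628% in shYthdf3). Hoxc8, at a mean of 0.27 TPM in MEF shLuc, did not pass the filter of the cell line fit and was not tested there. Of the 30 members tested, 3 and 4 had an unadjusted p under 0.05, as did 2117 and 2359 of 17985 genes. The members were thus near the share of all genes. Hoxb6 had such a p in both arms, at 10.97 and 10.2 TPM in shLuc, 5.62 and 7.22 in shYthdf2 and 7.44 and 4.89 in shYthdf3, with no overlap. It passed in shYthdf3 without shYthdf3 replicate 1. Among the other lists in the time course, En1 and Tbx15 were the 2 lower calls of 29 positional factors in shYthdf2, and Prrx1 the 1 in shYthdf3, at 59.5 against 120 TPM. In shYthdf3 Tgif1 and Hoxaas3 were lower and Rarg, a retinoic acid receptor, was higher at 109 against 47.7 TPM. No Polycomb, Trithorax or flanking gene was called in either arm of the time course. Of all 21303 genes tested there, 755 were called in shYthdf2 and 1121 in shYthdf3.

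No Hox gene was called with the Tead2 hairpin at day 1. Hoxd13 was at 14.3 and 26.2 TPM with the hairpin against 27.8 and 23.7 in its shLuc control, and Hoxa9 at 27.1 and 26.6 against 35.9 and 31.4. Of 34 tested members 0 were called with limma, where 0.0879% of 14783 genes were called. Of the members 1, Hoxd9, had an unadjusted p under 0.05, a count that was not set against all genes. Tead2 itself was at 33.7 against 92.5 TPM (adjusted p = 0.213). The 6 endothelial markers summed to 239 and 88.2 TPM with the hairpin and 6.42 and 4.06 in the control, and their part in the Hox values was not tested. With 2 libraries a group and 2 residual degrees of freedom, a simulated log2 change of 2 was recovered in 0% of genes, so changes of this size were not detectable.

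Hox transcripts lost relative abundance after transcription was blocked, most of them by 8 h. Hoxc6 was at 25.6 and 42.5 TPM after 4 h of DMSO in shLuc and 28.8 and 39.5 after 8 h, and at 9.26 and 15.5 TPM after 4 h and 4.02 and 3.48 after 8 h of actinomycin D. Hoxa5 was at 15.0 and 22.6 TPM after 4 h and 23.6 and 16.9 after 8 h of DMSO, and at 6.02 and 7.52 and then 1.58 and 2.39 with actinomycin D. Hoxa9 was at 33.1 and 37.7 and then 44.2 and 37.5 TPM with DMSO, and at 6.34 and 12.4 and then 4.4 and 10.9 with actinomycin D. For these 3 genes no shLuc library with the drug overlapped one with DMSO. TPM is relative to all transcripts of a library and no spike-in scaling was used. These values therefore describe loss against the transcript total of a library and give no half-life. On this scale the median log2 change of all genes was itself -0.29 at 4 h and -0.55 at 8 h.

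Over the 3 hairpins, 19 of 34 tested members were lower at 4 h with limma, and none higher, where 27.4% of 19290 genes were called (25.7% lower). All 34 log2 changes were negative, with a median of -0.98 against -0.29 over all genes. At 8 h 31 of 34 were lower, against 48.3% of all genes (43.5% lower), with a median of -1.60 against -0.55. The exceptions at 8 h, with mean TPM under DMSO and actinomycin D, were Hoxb8 (6.635 and 4.29), Hoxc11 (0.76 and 0.07) and Hoxd3 (0.96 and 0.88). Hoxc11 and Hoxd3 lay below the pseudocount of 1 TPM, where a fall is hard to call, so they are not shown to be stable. With the replicate block the counts were 26 and 32, against 38.2% and 56.5% of all genes, and in shLuc alone 10 and 23, against 12.9% and 30%. When libraries were scaled to a common level, which moved the median of all genes from -0.29 to -0.02 at 4 h and from -0.55 to -0.08 at 8 h, 15 and 21 members were lower, against 25.7% and 44.8% of all genes.

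The members differed in how far they fell. On the log2(TPM + 1) scale the change of a low gene is limited by its starting level, so the order below is not one of fold changes. Hoxa2, for example, went from 3.32 to 0.19 TPM at 8 h with a log2 change of -1.86. At 4 h the largest falls were those of Hoxc4 (log2 change -1.85), Hoxb2 (-1.84), Hoxa9 (-1.76, from a mean of 31.2 to 8.78 TPM), Hoxa13 (-1.72), Hoxa3 (-1.64), Hoxa5 (-1.53) and Hoxc9 (-1.53). At 8 h they were those of Hoxc6 (-2.72, SE 0.224, from 30.3 to 3.87 TPM), Hoxa5 (-2.57), Hoxa3 (-2.34), Hoxb4 (-2.22) and Hoxc4 (-2.18). Hoxc5 was at 20.2 TPM with DMSO and 19.5 with actinomycin D at 4 h (log2 change -0.16, SE 0.274) and at 28.0 and 11.3 TPM at 8 h (-1.25, SE 0.274). Hoxb9 was at 12.3 and 6.95 TPM at 8 h (-0.74, SE 0.190) and Hoxd8 at 13.1 and 6.63 (-0.86, SE 0.226). Scaled to a common level these last 2 changes were 0.05, with an adjusted p of 0.849, and -0.07, so the direction of Hoxb9 depends on the scaling.

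**Figure D4:**
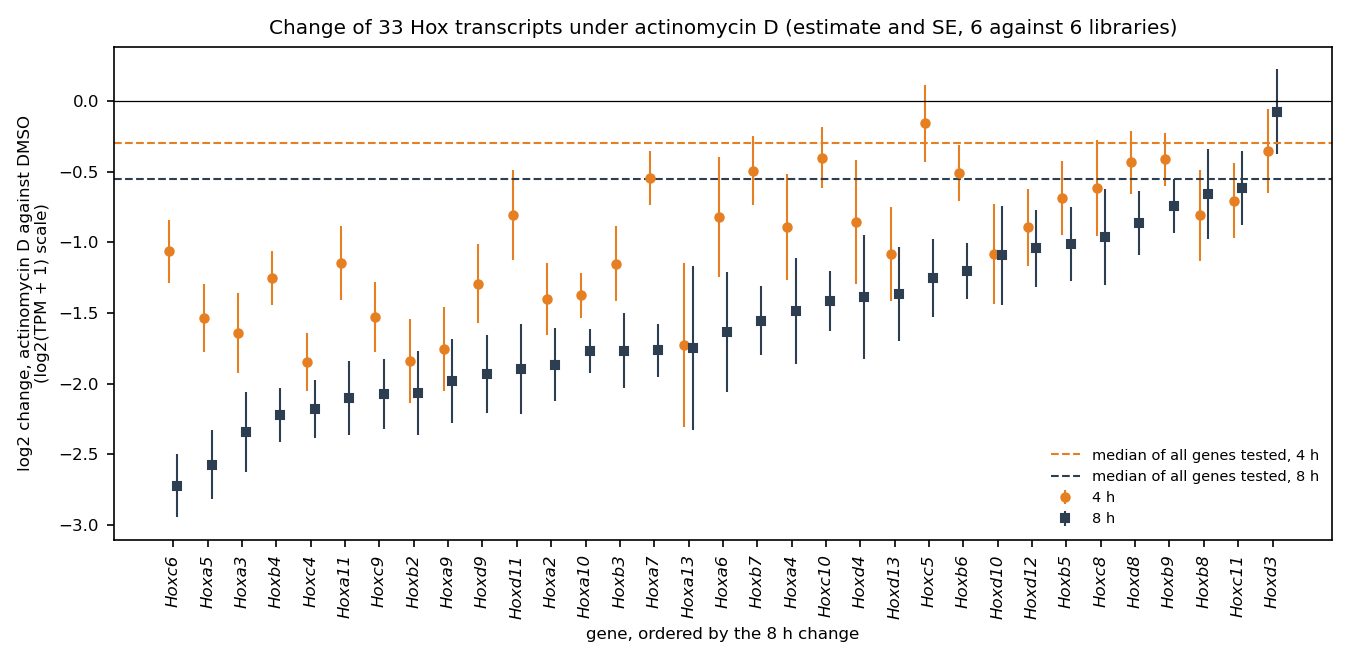
Log2 change of 33 of the 34 tested Hox genes between actinomycin D and DMSO at 4 h and 8 h, mean of the 3 hairpins, with limma standard errors, and the median of all genes as a line. At 4 h all values drawn are below 0, and at 8 h Hoxc6 and Hoxa5 are lowest at -2.72 and -2.57.

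The change with actinomycin D did not differ detectably between a knockdown and shLuc for any member with limma (0.0156% and 0.00518% of all genes). Of the members 1 (Hoxb4, in shYthdf2) and 0 had an unadjusted p under 0.05, counts that were not set against all genes. A simulated log2 difference of 2 between groups of this experiment was recovered in 49% of genes and one of 1 in 7%. Of the other lists at 8 h, where 43.5% of all genes were lower with a median of -0.55, 5 were mostly lower. These were 24 of 26 Polycomb genes (median -1.82), 10 of 11 Trithorax and MLL genes (-2.0), 9 of 11 TALE genes (-1.68), 25 of 28 tested positional factors with 2 higher (-1.48) and 4 of 6 tested upstream regulators (-1.78). The 4 of 9 tested noncoding transcripts (-0.77) and 6 of 12 tested flanking genes (-0.54) that were lower lay near the share of all genes. The Polycomb gene Eed went from 45.0 to 3.99 TPM and Cbx2 from 11.9 to 0.62 TPM.

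Each arm and day had a single ATAC-seq peak list, so nothing was tested between lists. The clusters span 492097 bases, of which peaks covered between 1.535 and 3.754%. In shLuc they held 53 peaks at day 1, 33 at day 3, 40 at day 5 and 50 at day 7, in shYthdf2 52, 32, 30 and 45, and in shYthdf3 58, 33, 29 and 37. The whole lists held 43725 to 78260 peaks, so these counts also depend on list size. As a share of each list's peaks they were 0.087, 0.0723, 0.0668 and 0.0967% in shLuc at days 1, 3, 5 and 7. On the same days the shares were 0.0664, 0.064, 0.054 and 0.0596% in shYthdf2 and 0.0777, 0.07, 0.0663 and 0.0706% in shYthdf3. Within 1000 bases of a start site, 14 of the 22 members with a known start (63.6%) had a peak in shLuc at day 1, against 45.9% of 27025 genes. At days 3, 5 and 7 the members' shares were 50.0, 50.0 and 54.5% (11, 11 and 12 members), near the 44.9, 48.2 and 47.1% of all genes.

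Presence of a peak at the start did not follow the level of the transcript member by member. Hoxa3, Hoxa5, Hoxa10, Hoxd1, Hoxd8, Hoxd9 and Hoxd10 had a peak in all 12 lists, Hoxd13 in 11 and Hoxa13 and Hoxd11 in 9 each. Hoxd1, whose window is printed above almost wholly in capitals, was listed at 0 in both day 1 and both day 7 shLuc libraries. Hoxa9, whose window is wholly in lower case, reached 111 TPM and had no peak within 1000 bases of its annotated start in any list, although peaks lay elsewhere in its span in all 12. Hoxa6, Hoxb1, Hoxb8, Hoxd4 and Hoxd12 also had none. An annotated start may not be the one used in these cells.

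TEAD2, a transcription factor of the Hippo pathway, had 2 of its 7805 peaks at day 1 in the Hox clusters, near the starts of Hoxa10 and Hoxd10, so that 9.09% of the 22 members had one within 1000 bases against 13.9% of all genes. The cluster D peak was chr2:74691744-74691921 and the cluster A peak chr6:52240493-52240754. The cluster A peak lay near the further annotated Hoxa10 start (window chr6:52240805-52241104), and not in the printed Hoxa10 window. The TEAD core motif GGAATG, searched on both strands, occurred once in the printed Hoxd10 window, from base 273, which is inside the TEAD2 peak and in the lower-case end outside the ATAC peak. It also occurred once in the Hoxa9 window, from base 203, where there was no TEAD2 peak. Among Hox windows 8.3% held it, against 14.7% of all start-site windows, and TATAAA was in 16.7% against 13.6%. A match in letters is a description and does not show binding.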

How the data were processed

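RNA was measured as TPM in 70 libraries, 46 in one deposited table and 24 in the table of the lifetime experiment, which were normalized separately and fitted apart. The TPM values were made by the authors, and the submitters' processing notes name RSEM, Bowtie2, MACS2, SAMtools and deepTools with build mm10 and no version. The depth of a library cannot be read from TPM and is unknown, so no counting interval is given. The deposited peak lists (12 ATAC-seq, 1 TEAD2) give positions only, 1 list per library. A deposited spike-in table has 24 per-sample columns that could not be matched to samples and was not used here.

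Values were log2(TPM + 1), and a gene was tested if at least 2 libraries of the fit had 1 TPM. Limma 3.58.1 in R 4.3.3, with a trended prior and a mean for each group, was fitted to 18 cell line, 24 time course, 4 Tead2, 24 lifetime and all 46 RNA-table libraries, with 9, 12, 2, 12 and 23 residual degrees of freedom. Tests were two-sided, p-values were adjusted by Benjamini-Hochberg over all genes tested, and an adjusted p under 0.05 was a call. The fits were tested on simulated data with 200 changed genes: a log2 change of 2 was recovered in 84% (ES against MEF), 58% (day 1 against MEF), 40% (day 7 against day 1) and 49% (lifetime) of genes.

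Same-numbered replicates deviated together in the time course (correlation 0.276 to 0.497) and the lifetime experiment (0.122 to 0.388), and not in the cell lines (-0.126 to 0.074) or the Tead2 experiment (-0.022); the labels give no source of the pairing. Blocked values are given where they change a call or move a count by over 1.5 times. Alternatives were the pseudocount, the filter, a common scaling, the replicate block, and leaving out each library. Peaks were overlapped with start sites by at least 1 base.

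Members may all be named by the rule; in a comparison at most 10 called members are named by size of change, and of each other list at most 4 called genes. Where a smaller count is given, each reported member in it is named, and members given for contrast (Hoxc8, Hoxc5, Hoxb9, Hoxd1) were chosen with their values known. The members and the 7 gene lists and 6 marker lists were chosen with earlier results of these data known. The comparisons of the Tead2 control with MEFs and of hairpins under DMSO were added after the data had been seen. Figures were drawn with matplotlib 3.10.9 in Python 3.11.15. The values of 1 member and of some genes of the other lists are not reported here, though counts and sums include them.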

Additional observations from a re-analysis of the deposited data

How the results depend on the processing

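Over the counts of called members, 86 of 96 values under another setting and 131 of 164 with 1 library left out stayed within 1.5 times the reported count. The replicate block moved D7 against D1 from 6 to 10 in shLuc and from 5 to 10 in shYthdf2, the time course knockdowns from 2 to 4 (shYthdf2) and from 3 to 9 (shYthdf3), and the DMSO knockdowns from 0 to 2 (shYthdf2) and from 0 to 1 (shYthdf3); it moved no other count by that much. In shYthdf2 over the time course a pseudocount of 0.1 TPM and no filter each gave 1. The mean over 3 hairpins gave 9 between iPS and ES cells, and shLuc alone gave 10 under actinomycin D at 4 h; the cause was not tested, beyond fewer libraries in the last. Leaving out single libraries gave 23 to 24 (ES against MEF), 22 to 25 (iPS against MEF), 1 to 4 (iPS against ES), 0 to 1 (shYthdf3 in MEFs), 20 to 21 (day 1 against MEF), 33 to 34 (iPS against day 7), 0 to 4, 0 to 2 and 0 to 3 (day 7 against day 1 in shLuc, shYthdf2 and shYthdf3), 1 to 3 and 1 to 4 (shYthdf2 and shYthdf3 over the time course), and 14 to 20 and 27 to 32 (actinomycin D at 4 h and 8 h). Of the members' own changes 1 reversed, Hoxb9 under actinomycin D at 8 h with common scaling (log2 change 0.0534), and of called changes 168 of 1184 lost their call with a library left out and 54 of 905 under another setting. Groups of 2 libraries limit what could be called: between day 7 and day 1 a simulated log2 change of 1 was recovered in 2% of genes.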

Other observations

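Replicate 2 was above replicate 1 in all 12 groups of the time course for 4 members, Hoxa10, Hoxa11, Hoxc4 and Hoxc6, and in all 6 DMSO groups of the lifetime experiment for 5 members, Hoxa6, Hoxa13, Hoxd10, Hoxd11 and Hoxd13, with none in both. Hoxa13, which patterns the hand and foot, was at 0.55 to 1.73 TPM in the 6 DMSO libraries numbered 1 and at 4.6 to 12.7 TPM in the 6 numbered 2, with no overlap. These genes were picked for this pattern after their values were seen, and no test was made.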
